A study of Caenorhabditis elegans with 12 samples.

Results

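The subject is the response of wild-type Caenorhabditis elegans (strain N2, whole worms) to sodium azide. Worms were synchronized by a timed egg lay and grown on nematode growth medium with lawns of the OP50 strain of E. coli, which carried either water or sodium azide. The 3 azide libraries were set against the 3 water libraries, and these 6 are 6 of the 12 libraries of the series. The remaining 6, from worms of strain MT12993 that carry the mir-71(n4115) deletion and received the same 2 treatments, entered the statistical fit to share its estimate of the spread between replicates. Of 20212 genes in the table, 15048 had enough reads to be tested. By the methods all worms were collected once the progeny had reached the last larval stage (L4). The labels name whole bodies and give neither a stage nor the azide dose of these plates.

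Azide blocks cytochrome c oxidase (complex IV), the last enzyme of the mitochondrial electron transport chain. Worms answer a failing chain with the mitochondrial unfolded protein response (UPRmt), in which the transcription factor ATFS-1 moves from mitochondria to the nucleus and switches on chaperones such as hsp-6. Inhibitors of this enzyme also engage the HIF-1 pathway, whose targets include enzymes that detoxify cyanide and sulfide. A second set of genes tells the age of a worm. Each larval stage ends in a molt driven by a pulse of molting and collagen genes, the hermaphrodite germ line first makes sperm and then turns to oocytes, and the adult intestine makes yolk.

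Each library held between 19222887 and 22831886 counts assigned to genes. On a principal component plot of the 6 libraries the first component took 79.6% of the variance and set the treatments apart. On the second component, which took 6.66%, water replicates 1 and 2 lay at opposite ends with water replicate 3 between them, and the azide libraries lay together. Levels are given as CPM (a gene's count scaled to a library total of 1000000 after TMM normalization) and tests come from the quasi-likelihood method of edgeR, with p adjusted over all genes tested and a threshold of 0.05. The p-values measure the spread among 3 libraries per group, which the methods call biological replicates.

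In the edgeR fit 54.6% of the tested genes changed on azide. That share was 63.9% in the 6 wild-type libraries alone and 44.3% when libraries were centred on body wall muscle markers. It was 42.5% with no filter on low counts and 46.3% to 50.3% without 1 wild-type library. With TMM scaling 4138 genes rose (27.5% of those tested) and 4079 fell (27.1%), while 6831 did not pass the threshold. The 3 azide values and the 3 water values did not overlap for 10196 genes, or 67.8%. Changes of at least 2-fold were called for 1640 genes that rose and 2246 that fell. The median log2 fold change was 0.85 among the genes that rose, −1.08 among those that fell and −0.05 over all genes. Genes that rose made up about 14.6% of summed CPM on water and 32.6% on azide. TMM-scaled CPM do not sum to 1000000 per library (TMM factors 0.924 to 0.996), so these shares are approximate. The genes were picked for rising in these same libraries, so the growth of their share follows from the choice.

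The balance between rises and falls depended on how the libraries were scaled to each other. Rises were 50.4% of the calls with the TMM scaling used here. They were 39.8% with upper-quartile factors (3350 rises, 5057 falls), 41.3% when libraries were centred on body wall muscle markers, 67.9% when centred on cytosolic ribosomal protein genes and 86.0% when centred on neuron markers (8160 and 1327). These choices shifted the median of all genes by −0.15, −0.09, 0.26 and 0.72 on the log2 scale, so a change smaller than those shifts holds only relative to TMM. Named genes that passed the threshold kept their direction under these 4 scalings and DESeq2's size factors, except for some that neuron centring turned upward and mrps-12, which ribosomal centring turned too. No direction is read from genes that did not pass.

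Yolk genes gave the largest gain in RNA among the groups listed. vit-2, one of the vitellogenins that the adult intestine secretes as yolk (chromosome X, 5101043 to 5106078, build WBcel235), stood at 1579, 1851 and 1282 CPM in water replicates 1 to 3 and at 15414, 13581 and 11970 CPM in azide replicates 1 to 3. Every azide library was far above every water library, and the mean rose 8.69-fold (log2 fold change 3.12, SE 0.558, edgeR adjusted p = 0.00108). vit-6 rose from 2410, 2555 and 1948 CPM to 17592, 15379 and 13718 CPM, again without overlap (log2 fold change 2.76). vit-5 rose by 3.43 on the log2 scale. Per length, vit-6 went from a mean of 434 to 3029 FPKM. All 6 tested vitellogenins rose (median 2.81 on the log2 scale), and their summed level went from 5165 ± 990 to 39274 ± 4931 CPM (SD, n = 3). That count was 4 to 5 when 1 library was left out and 4 with muscle centring. In edgeR vit-4 (2.86, adjusted p = 0.0341) lost its call without any one library. Several vitellogenins are close copies of each other, so reads may have been split among them.

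Oocyte transcripts rose with them. rme-2, the receptor through which oocytes take up yolk, was at 65.3, 109 and 76.0 CPM on water and at 469, 480 and 454 CPM on azide (log2 fold change 2.49, SE 0.376, adjusted p = 0.000327 by edgeR). The groups were well separated, and water replicate 2 was the highest of the water libraries for this gene. cbd-1, a chitin-binding protein of the eggshell, showed the same order within water, with 126, 247 and 151 CPM against 1072, 958 and 972 CPM on azide. Its mean rose 5.73-fold. The chondroitin proteoglycans of the eggshell also rose, cpg-2 by 2.87 and cpg-3 by 3.33 on the log2 scale, as did perm-2 of the permeability barrier (2.85). All 15 eggshell and yolk uptake genes tested rose (median 2.52). In whole-worm RNA, more cells of a type and more RNA per cell cannot be told apart.

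RNA-binding proteins that oocytes store for the embryo followed. pos-1, a zinc-finger protein of early blastomeres, went from 33.6, 46.1 and 29 CPM to 272, 309 and 279 CPM, a 7.90-fold higher mean (log2 fold change 2.98, adjusted p = 0.000381, edgeR). oma-1, needed for oocyte maturation, rose 4.04-fold, from 32.4, 45.5 and 39.4 CPM to 158, 165 and 150 CPM. nos-2 of the nanos family rose by 3.12 and the Pumilio-family gene puf-5 by 2.94 on the log2 scale. Of 26 oocyte and early embryo RNA regulators tested, 25 rose and 0 fell, with a median of 2.2. Their summed level was 2135 ± 379 CPM on water and 6840 ± 267 CPM on azide (SD, n = 3).

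Genes of dividing and meiotic germ cells rose by less. Of 25 meiotic chromosome genes, 24 rose and 0 fell (median 0.86), led by lab-1 (1.53), him-14 (1.28) and zim-2 (1.24). The exception, the axis protein gene him-3, had a log2 fold change of 0.29 and an adjusted p of 0.0731 by edgeR. It passed without water replicate 2, with neuron and ribosomal centring and in the 6 wild-type libraries alone. Of 30 cell cycle and DNA replication genes 29 rose (median 0.98), with the B-type cyclins cyb-2.1 (2.27), cyb-2.2 (2.19) and cyb-3 (2.01) at the top. The direction of the yolk, eggshell, oocyte, meiotic and cell cycle medians was the same under the 5 other scalings. Meiotic rises numbered 19 with muscle centring.

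Transcripts of embryos themselves did not rise. Only 4 of 16 genes first transcribed in the zygote passed the count filter, and 3 of those fell. They were pha-4 (−0.79), nhr-68 (−0.64) and elt-1 (−0.59), which later act in pharynx, intestine and epidermis. Centring on neuron markers turned nhr-68 and elt-1 upward (0.08 and 0.13, not past the threshold). The endoderm factor end-1, which embryos express only briefly, had between 0 and 2 counts in each of the 6 libraries and was not tested.

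Sperm genes took no common direction. The sperm phosphatase gene gsp-3 stood at 78.4, 82.4 and 84.4 CPM on water and 72.2, 79.7 and 68.5 CPM on azide (log2 fold change −0.15, adjusted p = 0.601, edgeR). Those ranges overlapped. spe-11, a sperm protein that acts in the embryo, gave −0.47 with an adjusted p of 0.237. Of 47 spermatogenesis genes tested, 15 fell (31.9%) and 2 rose (4.26%), beside 27.1% and 27.5% of all genes tested. The median of the list, −0.15, turned positive with neuron (0.57) and ribosomal (0.10) centring. Those that fell included spe-42 (−2.24) and spe-9 (−1.73), both needed by sperm to fertilize. The rises were ssp-37 (3.38), which held in every fit with a library left out, and ssp-19 (1.21), which held only when azide replicate 3 was the one left out.

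Major sperm proteins, the motility and signalling proteins of nematode sperm, summed to 1809, 1854 and 1942 CPM on water and 2337, 2527 and 2042 CPM on azide. Among the 30 tested, msp-55 (1.21) and msp-65 (1.17) rose and msp-74 fell (−2.23), and both rises were lost without any one library. Fitting the 6 wild-type libraries alone raised the count of rises to 16. These genes are near-identical copies, so the split of reads among them is uncertain.

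**Figure D1:**
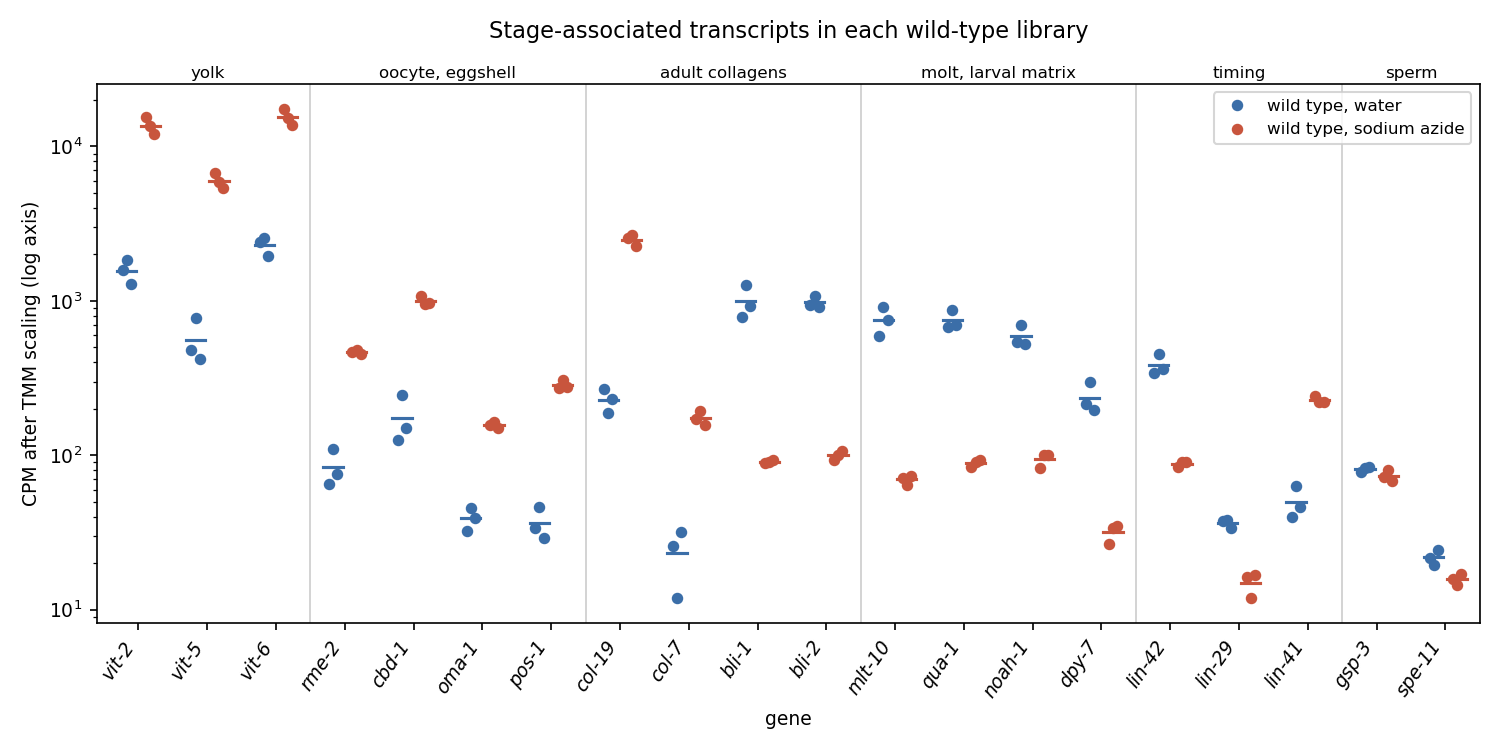
CPM on a log scale for the stage and germline genes, with 1 point per library and a bar at the mean of the 3 libraries of each treatment. The yolk gene vit-2 and the adult collagen col-19 lie higher in every azide library (col-19 at 2274 to 2674 against 188 to 268 CPM), mlt-10 lies lower (64.6 to 73.2 against 594 to 909 CPM), and the sperm gene gsp-3 overlaps.

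Molting genes moved the other way. mlt-10, an epidermal gene that pulses with each molt, was at 594, 909 and 748 CPM on water and at 71.5, 64.6 and 73.2 CPM on azide. The water libraries were all at least several times the azide ones, and the mean was 10.8-fold lower on azide (log2 fold change −3.43, SE 0.323, adjusted p = 1.28e-05, edgeR). qua-1, a hedgehog-related gene needed for molting, fell from 678, 877 and 695 CPM to 83.4, 89.9 and 92.8 CPM. mlt-9 fell by 2.99 on the log2 scale. In all, 24 of 25 molting cycle genes fell and 0 rose (median −1.74), and their sum dropped from 6587 ± 861 to 1231 ± 40.3 CPM (SD, n = 3). The one not called was nhr-23, the nuclear receptor that times the molt, with 41.9, 52.2 and 47.1 CPM on water and 41, 40.7 and 41.1 CPM on azide (log2 fold change −0.20, adjusted p = 0.271, edgeR).

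Cuticle collagens changed in both directions, also among those known from the adult cuticle. col-19, a marker of the adult cuticle, was at 268, 188 and 230 CPM on water and 2540, 2674 and 2274 CPM on azide, a 10.9-fold rise (log2 fold change 3.45, SE 0.590, adjusted p = 0.000871, edgeR). No water library came near the azide ones, and water replicate 2 was the lowest. That library was also lowest for col-7, at 25.9, 12.0 and 31.8 CPM against 171, 193 and 157 CPM on azide (2.90), and for col-62 (2.66). By contrast bli-1, which builds the struts of the adult cuticle and is made while that cuticle is being laid down, fell from 783, 1274 and 926 CPM to 88.9, 90.8 and 93.4 CPM (log2 fold change −3.45, adjusted p = 0.00236 in edgeR). Its partner bli-2 fell by 3.28. These 5 genes formed the list of adult-stage collagens, of which 3 rose and 2 fell.

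All 6 collagens of the cuticle furrows fell (median −2.74). dpy-7 went from 216, 298 and 196 CPM to 26.6, 33.9 and 34.7 CPM (log2 fold change −2.90, SE 0.318, adjusted p = 3.81e-05 by edgeR), without overlap, and dpy-3 (−2.79) and dpy-9 (−2.76) fell as far. Among the other collagens, 139 of 169 listed genes were tested, 35 rose and 70 fell, with a median of −1.09. lon-3, a collagen that limits body length, fell from 932, 1147 and 987 CPM to 95.6, 88.9 and 93.4 CPM. col-79 (−3.13) and col-110 (−3.11) fell with it. At the other end col-142 rose 15.5-fold, from 61.7, 81.2 and 85.0 CPM to 1223, 1201 and 1117 CPM, and col-95 (4.21) and col-135 (4.03) rose from a few CPM. Because both directions were large, the sum of these collagens moved less, from 84395 ± 3867 to 69389 ± 3461 CPM.

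The matrix that covers the epidermis during a molt fell too. noah-1, a zona pellucida protein of that matrix, went from 538, 702 and 528 CPM to 82.5, 101 and 101 CPM (log2 fold change −2.64, adjusted p = 8.89e-06, edgeR), and noah-2 fell by 2.74. Of 43 apical matrix and cuticlin genes 30 fell and 1 rose, the leucine-rich repeat gene egg-6 (1.07), with a median of −1.66. Hedgehog-related genes, which in worms serve the epidermis and its molts, gave 28 falls and 2 rises among 43 tested of 59 listed (median −2.16). wrt-4 fell from 408, 398 and 386 CPM to 36.5, 27.2 and 41.2 CPM, wrt-1 by 3.39 and grd-11 by 4.90 on the log2 scale. grd-3 rose (1.9), and so did grd-4 (2.01), which is under 1 CPM and lost its call without water replicate 1, water replicate 2, azide replicate 1 or azide replicate 2.

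Of 24 patched-related genes, whose proteins resemble the hedgehog receptor, 14 fell and 4 rose. ptr-19 (−4.15), ptr-15 (−2.71) and ptr-4 (−2.63) fell most, and ptr-22 (2.01), ptr-13 (1.82) and ptr-8 (1.64) rose most. Astacin metalloproteases, some of which open the old cuticle, gave 16 falls (47.1%) and 7 rises (20.6%) among 34. For all genes tested those shares were 27.1% and 27.5%. The astacin calls ran from nas-15 (−3.06) to nas-17 (4.63), with nas-20 at 3.42. nas-17 had 0, 0.0496 and 0.569 CPM on water and 7.88, 5.52 and 2.69 CPM on azide. The falls of molting, furrow, apical matrix and hedgehog-related medians kept their sign under all 5 scalings, as did those of the other collagens, the patched-related genes and the astacins.

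Genes that set developmental time changed in both directions. lin-42, the worm period homolog, whose mRNA rises and falls once per larval stage, was at 342, 452 and 363 CPM on water and at 84.3, 90.9 and 90.3 CPM on azide (log2 fold change −2.12, SE 0.182, adjusted p = 1.66e-06, edgeR). lin-29, the factor that brings on adult fate in the epidermis, fell from 37.7, 38.2 and 33.8 CPM to 16.3, 11.9 and 16.7 CPM, and its cofactor mab-10 fell by 1.19. lin-41, which holds back adult fate in larvae and is also abundant in oocytes, rose 4.59-fold, from 40.1, 63.4 and 46.5 CPM to 243, 223 and 222 CPM. lin-28 rose by 0.58, a call lost with muscle centring. None of the azide libraries overlapped water for lin-42, lin-29 or lin-41. Of 10 timing genes 6 fell and 2 rose, and the median of −0.54 became 0.18 with neuron centring.

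In the vulva list, 4 of 16 genes rose (25%) and 2 fell (12.5%), beside 27.5% and 27.1% of all genes tested. The Delta-type ligand apx-1 (1.82) and the epidermal growth factor lin-3 (1.68) rose, as did the phosphatase gene lip-1 (1.03). The homeobox gene cog-1 (−1.29) and the fibroblast growth factor egl-17 (−1.08), both expressed in vulval cells, fell. The median of −0.20 turned positive with ribosomal (0.06) and neuron (0.52) centring. A difference in stage between treated and untreated worms and an effect of azide at equal stage cannot be told apart in these libraries. This holds for the genes described above, for the vulva list and for any others below.

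**Figure D2:**
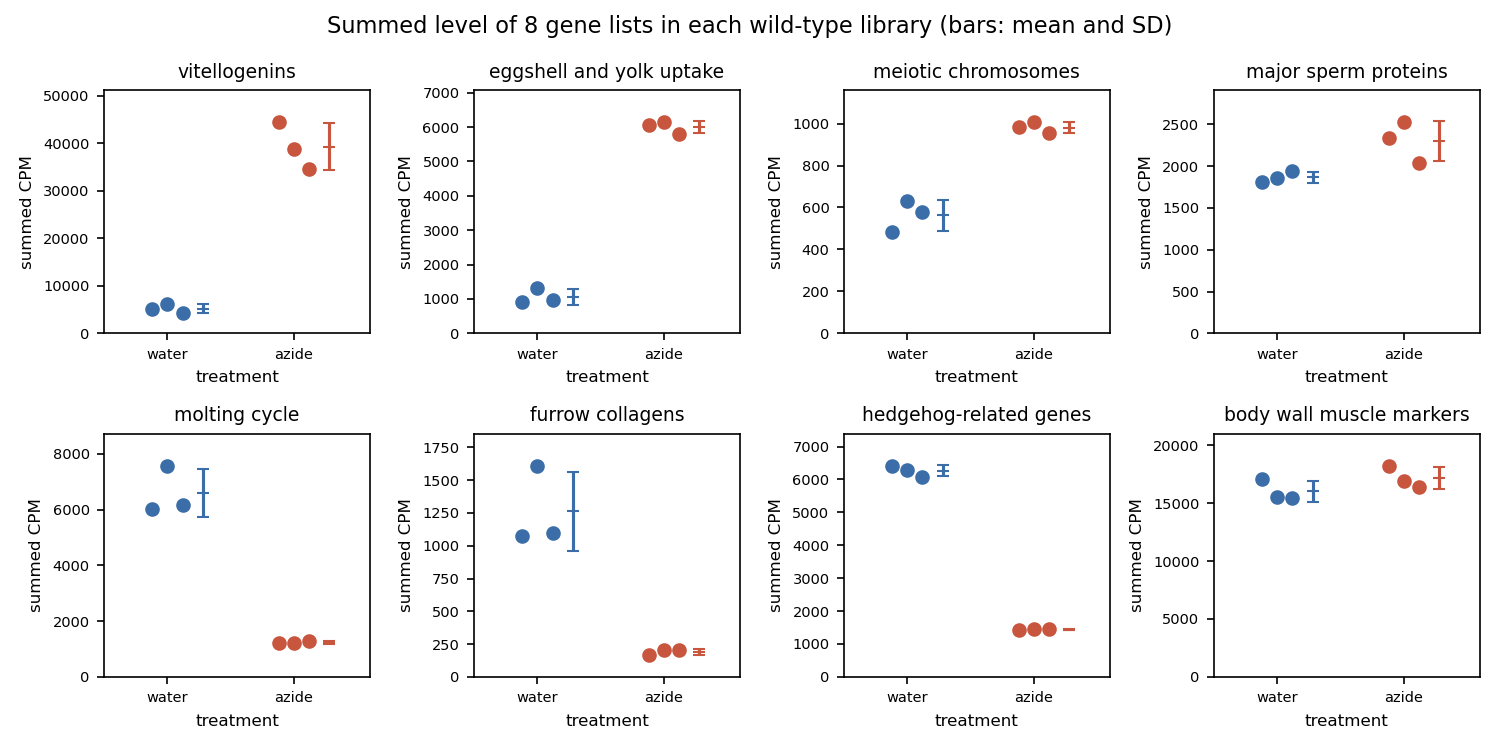
Summed CPM of 8 gene lists in each wild-type library, 1 point per library with the mean and SD of the 3 beside them, each panel on its own axis from 0. Vitellogenins, eggshell and meiotic genes are higher in all azide libraries, molting genes are lower in all of them (1231 against 6587 CPM in the means), and body wall muscle markers overlap.

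The mitochondrial stress genes changed far less than the stage genes. hsp-6, the mitochondrial HSP70 and the usual reporter of the UPRmt, went from 501, 588 and 568 CPM to 960, 901 and 868 CPM, 1.65-fold (log2 fold change 0.72, SE 0.125, adjusted p = 0.000312, edgeR). The azide libraries were all above the water libraries, and the call held under all 5 scalings and without any one library. hsp-60, the mitochondrial chaperonin, rose 1.34-fold, from 649, 802 and 766 CPM to 1041, 994 and 935 CPM, with an adjusted p of 0.0213 that was lost without water replicate 1, azide replicate 1 or azide replicate 2 and with upper-quartile and muscle scaling. The co-chaperone dnj-10 (0.55, lost with muscle centring) and the protease spg-7 (0.46) also rose. The spg-7 call was lost without water replicate 1 and with upper-quartile and muscle scaling. Of 14 UPRmt chaperones and proteases 10 rose and 0 fell (median 0.36). Only 2 were called with upper-quartile factors and 1 with muscle centring, although the median stayed above 0 throughout.

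Regulators of the response were divided. atfs-1 rose 1.43-fold, from 54.8, 57.5 and 55.9 CPM to 82.3, 81.5 and 76.1 CPM (adjusted p = 0.00572, edgeR). The histone methyltransferase met-2 (1.12) and its partner lin-65 (0.70) rose, as did the mitochondrial peptide exporter haf-1 (0.79, lost with muscle centring). The histone demethylase jmjd-3.1, which promotes the response, fell from 38.2, 39.9 and 40.7 CPM to 15.8, 13.9 and 17.9 CPM, a log2 fold change of −1.32 that no scaling or missing library removed. In edgeR dve-1, the homeobox partner of the response, fell by 0.51 in log2 terms (adjusted p = 0.0213), a call lost without water replicate 1, azide replicate 1 or azide replicate 2 and turned to 0.21 by neuron centring. ubl-5, its ubiquitin-like cofactor, gave −0.24 with an adjusted p of 0.223. In total 8 of 14 regulators rose and 2 fell (median 0.38), and 5 rose with muscle centring.

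**Figure D3:**
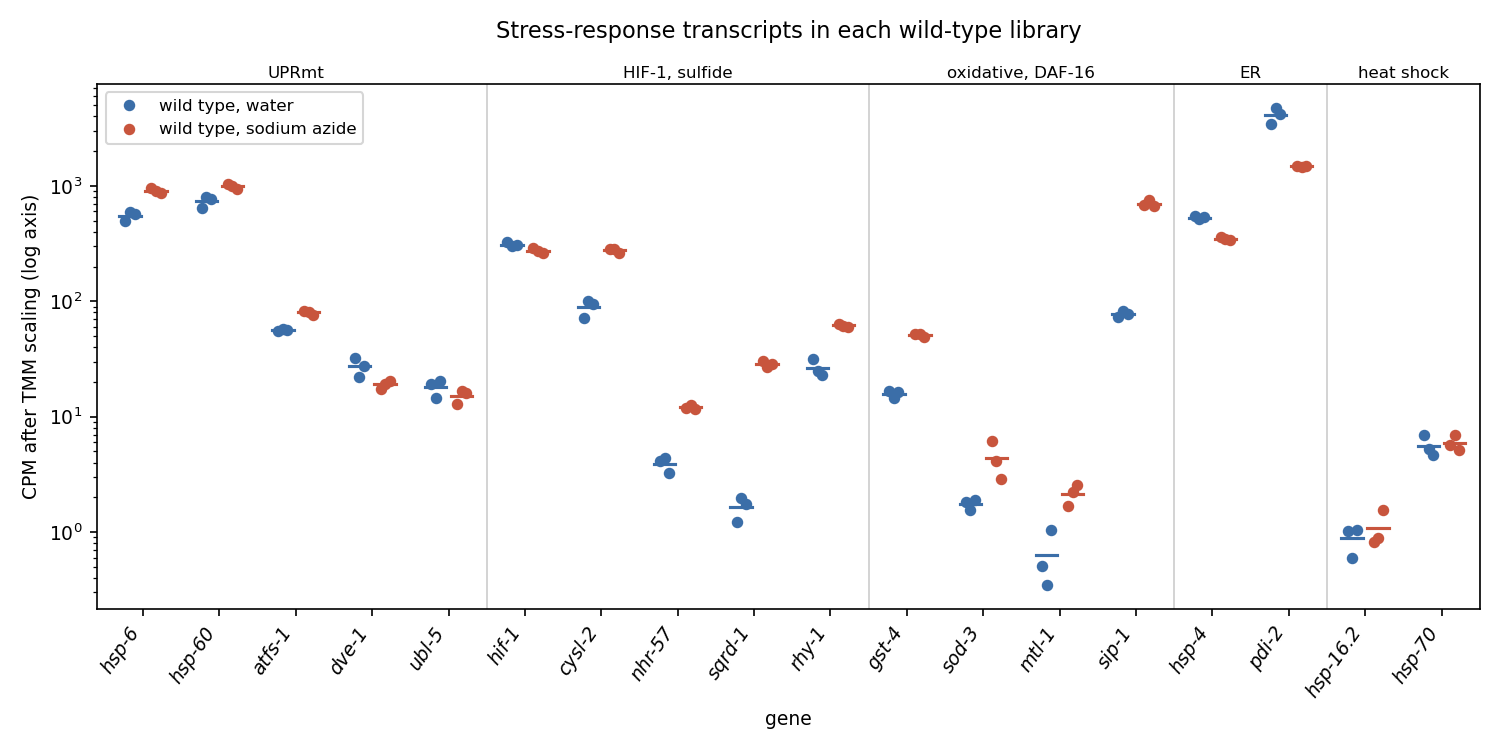
CPM on a log scale for stress response genes, 1 point per library with a bar at the mean of each treatment. sqrd-1 shows the widest gap (1.22 to 1.98 CPM on water, 27 to 30.2 CPM on azide), hsp-6 a narrow one, and hif-1, hsp-16.2 and hsp-70 did not pass the test.

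A few enzymes of the HIF-1 and sulfide pathway rose sharply. sqrd-1, the sulfide:quinone oxidoreductase that passes electrons from sulfide into the respiratory chain (chromosome IV, 14220033 to 14224357), rose from 1.22, 1.98 and 1.75 CPM to 30.2, 27 and 28.6 CPM. That is 17.3-fold, with a log2 fold change of 4.11 (SE 0.225, adjusted p = 5.76e-08, edgeR). cysl-2, a cysteine synthase family enzyme that takes up cyanide, rose 3.12-fold, from 71.3, 99.7 and 94.3 CPM to 284, 285 and 260 CPM. The groups were apart for both genes, as they were for nhr-57 (1.62), a nuclear receptor used as a HIF-1 reporter, and rhy-1 (1.23), which restrains HIF-1.

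hif-1 itself was at 323, 301 and 305 CPM on water and 289, 272 and 263 CPM on azide (log2 fold change −0.17, adjusted p = 0.269 in edgeR). Other members fell. phy-2, a collagen prolyl hydroxylase subunit, went from 131, 142 and 133 CPM to 42, 40.2 and 41.5 CPM (−1.71), and the ferritin ftn-1 (−0.73) and the HIF-1 degradation factor vhl-1 (−0.61) also passed the threshold. Of 16 genes on the list 7 rose (43.75%) and 3 fell (18.75%), beside 27.5% and 27.1% of all genes tested. The falls numbered 1 without azide replicate 1 or azide replicate 3, ftn-1 was also lost without water replicate 1 and vhl-1 without water replicate 2 or water replicate 3, and the median of 0.06 was negative with muscle centring (−0.03) and upper-quartile factors (−0.09).

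Inducible cytosolic heat shock genes were not called. hsp-16.2 stood at 1.01, 0.595 and 1.04 CPM on water and 0.819, 0.884 and 1.55 CPM on azide (log2 fold change 0.31, adjusted p = 0.45, edgeR), and hsp-70 gave 0.08 with an adjusted p of 0.709. Of the 5 tested, 0 passed in either direction, and 1 rose without water replicate 1, azide replicate 1 or azide replicate 2. The endoplasmic reticulum list went down, with 11 falls and 1 rise among 18 genes. hsp-4, the worm BiP chaperone, fell from 543, 514 and 536 CPM to 360, 347 and 341 CPM (log2 fold change −0.60, adjusted p = 0.000182, edgeR), though neuron centring gave 0.12. pdi-2, a disulfide isomerase that is also a subunit of collagen prolyl hydroxylase, fell from 3456, 4737 and 4183 CPM to 1496, 1464 and 1492 CPM. abu-1 fell by 2.18 in log2 terms, a call lost without water replicate 1, water replicate 3, azide replicate 1 or azide replicate 2, and pdi-6 by 0.74. The one rise, the sensor gene ire-1 (0.30), was lost without water replicate 1 or water replicate 3. The list median of −0.40 became 0.32 with neuron centring.

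Oxidative stress and longevity genes were mixed. gst-4, a glutathione transferase used as a reporter of the SKN-1 pathway, rose 3.22-fold, from 16.6, 14.5 and 16.45 CPM to 52.1, 52.1 and 49 CPM (adjusted p = 4.19e-07, edgeR). The mitochondrial superoxide dismutase sod-3 rose from 1.82, 1.54 and 1.9 CPM to 6.14, 4.14 and 2.87 CPM, which is non-overlapping but uneven among the azide libraries. The catalases ctl-1 (1.07) and ctl-2 (0.90) rose, and the methionine sulfoxide reductase msra-1 fell (−0.94). Of 17 antioxidant genes 5 rose (29.4%) and 2 fell (11.8%), beside 27.5% and 27.1% of all genes tested. The fall count was 1 without water replicate 1, azide replicate 1 or azide replicate 3, and the median of 0.06 was negative with muscle centring (−0.02) and upper-quartile factors (−0.09).

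Among 17 targets of DAF-16, the transcription factor of the insulin pathway, 6 rose (35.3%) and 5 fell (29.4%). Both shares were near those of all genes tested (27.5% and 27.1%). sip-1, a small heat shock protein made in the germ line and embryo, led the rises at 9.01-fold, from 73.6, 81.9 and 78.0 CPM to 678, 755 and 672 CPM. The metallothionein mtl-1 rose by 1.75 from about 1 CPM or less. dao-3 (−1.89), dod-6 (−1.16) and hsp-12.3 (−1.08) fell. daf-16 was at 111, 103.99 and 102 CPM on water and 115, 106 and 111.99 CPM on azide, with overlapping values and an adjusted p of 0.536 by edgeR.

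Few genes of the enzyme that azide blocks passed the test with TMM scaling. cco-1, a nuclear-encoded subunit of complex IV, was at 634, 551 and 595 CPM on water and 516, 599 and 526 CPM on azide (log2 fold change −0.12, SE 0.0949, adjusted p = 0.311, edgeR). The ranges overlapped. The subunit gene W09C5.8 gave 0.16 with an adjusted p of 0.239. Of 15 genes for complex IV and its assembly 2 rose, the copper chaperone sco-1 (0.33) and the heme A synthesis gene cox-15 (0.31), and 0 fell. That count was 0 without water replicate 1, and 1 without water replicate 3 or azide replicate 1. The median of 0.02 was negative with upper-quartile factors (−0.13) and muscle centring (−0.06). With neuron centring all 15 rose (median 0.74), and with ribosomal centring 6 did.

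The rest of the respiratory chain also gave few calls with TMM scaling. Complex I had 1 rise, nduf-2.2 (0.39, lost without water replicate 1 or azide replicate 2), and 1 fall, gas-1 (−0.29, lost without any one library and 0.43 with neuron centring), among 14 genes. In complexes II and III, sdha-2 (0.65) and ucr-2.3 (0.60) rose and 0 of 14 fell. Of 12 ATP synthase genes, asb-1, the germline form of subunit b (0.49), and mai-1 (0.81) rose, and asg-2 fell (−0.33, lost without water replicate 1, water replicate 3, azide replicate 1 or azide replicate 3). Mitochondrial ribosomal proteins gave 5 rises (7.58%) and 3 falls (4.55%) among 66, beside 27.5% and 27.1% of all genes tested. Their median was −0.01. Their rises numbered 1 without water replicate 1 or azide replicate 2 and 2 without water replicate 3 or azide replicate 3, and their falls numbered 1 without water replicate 2 and 0 without water replicate 3 or azide replicate 1. With neuron centring 65 of the 66 rose, and with upper-quartile factors 14 fell and 0 rose. The medians of these 4 lists lay within 0.12 of 0, and their sign moved with the scaling. They lay between 0.62 and 0.74 with neuron centring, 0.15 and 0.27 with ribosomal centring and −0.26 and −0.14 with upper-quartile factors. Leaving out 1 wild-type library gave medians of −0.04 to 0.04 for complex I and −0.04 to 0.05 for ATP synthase. The range was −0.05 to 0.01 for mitochondrial ribosomal proteins and −0.13 to −0.08 for complexes II and III.

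**Figure D4:**
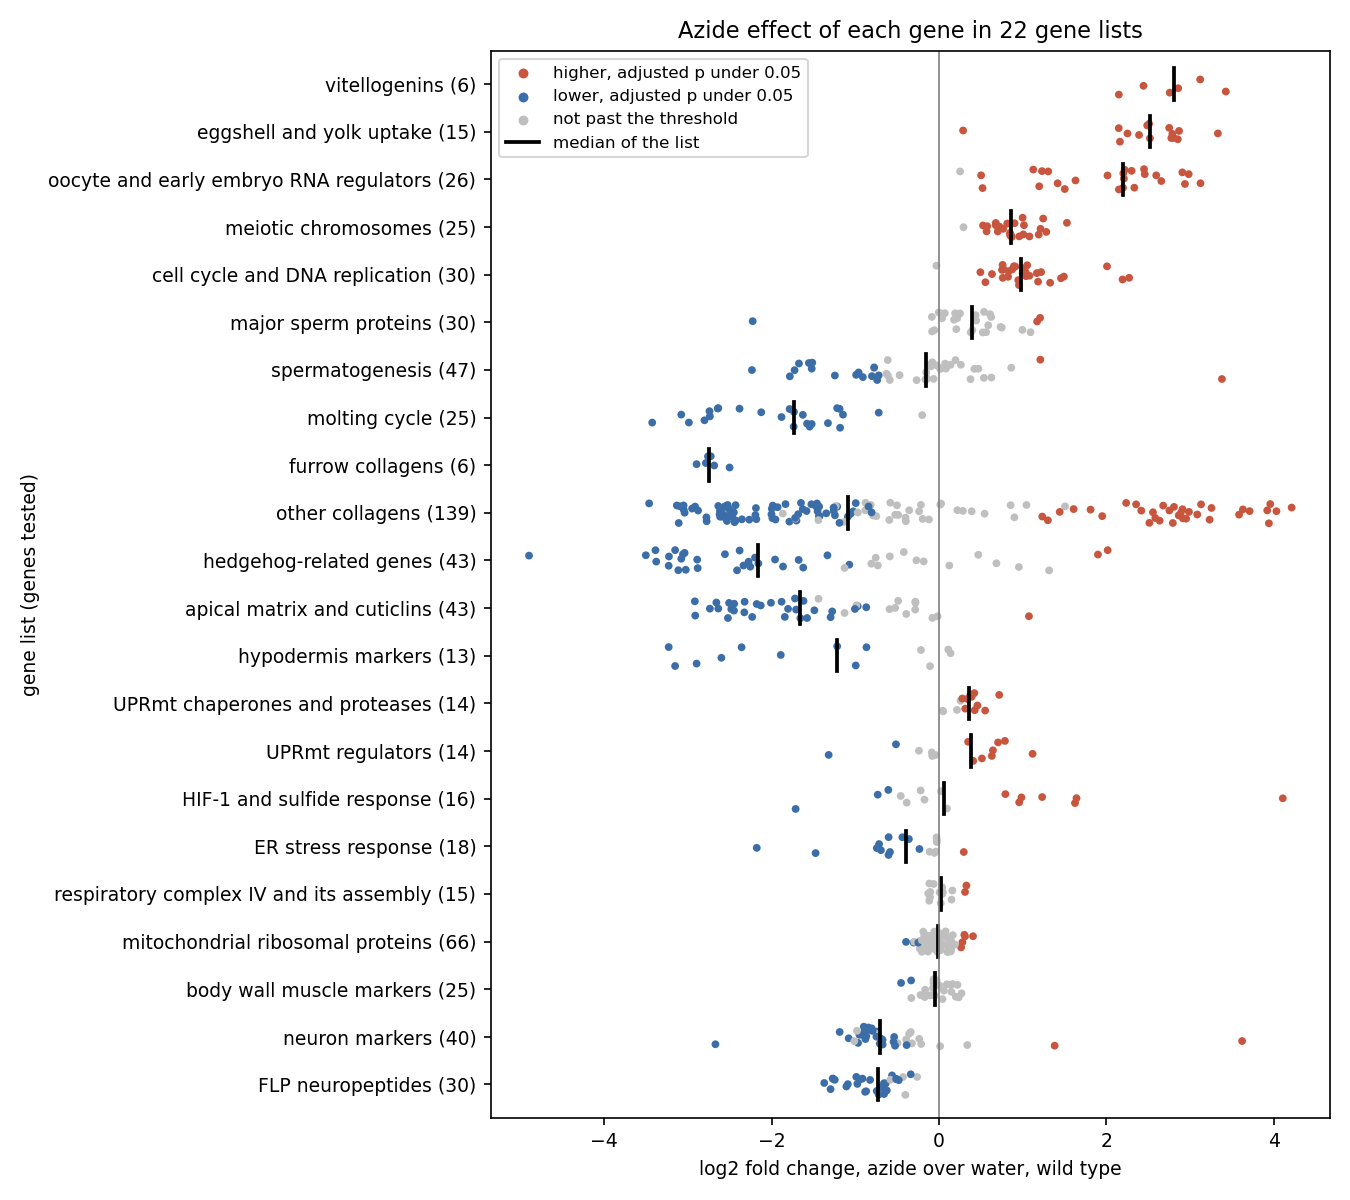
Log2 fold change, azide over water, of each tested gene in selected lists, with a bar at each list's median and colour for the call. Yolk, eggshell and oocyte genes lie to the right (medians 2.81, 2.52 and 2.2), molting, furrow and hedgehog-related genes to the left (−1.74, −2.74 and −2.16), and complex IV (0.02) and mitochondrial ribosomal protein genes (−0.01) at 0.

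Glycolysis genes rose more often than they fell. Of 22 tested 12 rose and 2 fell (median 0.27). The largest rises were gpd-1 (1.8) and gpd-4 (1.57), near-identical genes for glyceraldehyde phosphate dehydrogenase, and hxk-1, a hexokinase (1.31). hxk-1 went from 62.3, 58.1 and 59.5 CPM to 153, 147 and 147 CPM. pfk-1.2 (−1.31) and pyk-2 (−0.47) fell, the latter turning to 0.26 with neuron centring. ldh-1, the lactate dehydrogenase, rose from 124, 126 and 125 CPM to 180, 184 and 166 CPM (log2 fold change 0.50, adjusted p = 0.00164, edgeR). The count of rises was 7 without water replicate 3, azide replicate 1 or azide replicate 2, 6 with upper-quartile factors and 7 with muscle centring. In the TCA and glyoxylate cycles 3 of 24 genes fell (12.5%), led by idh-2 (−1.02), and 2 rose by under 0.4 (8.33%). Both shares were below the 27.1% and 27.5% of all genes tested. Leaving out water replicate 1, water replicate 3 or azide replicate 2 left 0 of those rises, and leaving out any of the other 3 libraries left 1.

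Lipid genes fell on balance. Of 16 fatty acid desaturases and elongases 9 fell and 0 rose (median −0.45, but 0.27 with neuron centring). elo-4 dropped from 44.6, 46.7 and 51 CPM to 5.58, 6.85 and 8.26 CPM, and elo-7 (−1.86) and elo-6 (−0.86) fell as well. The stearoyl desaturase fat-7 gave −0.29 with an adjusted p of 0.0936 by edgeR. In fatty acid oxidation 18 of 43 genes fell and 6 rose (median −0.26, but 0.46 with neuron centring and about 0 with ribosomal centring). acs-2, an acyl-CoA synthetase known for its induction by fasting, rose from 12.5, 8.88 and 13.7 CPM to 56.2, 56.3 and 47.1 CPM (log2 fold change 2.19), and acdh-2 rose by 1.99. acox-1.2, a peroxisomal oxidase of ascaroside side chains, fell from 159, 142 and 127 CPM to 26.6, 24.6 and 29.5 CPM (−2.41), with cpt-6 (−2.0) and acdh-6 (−1.91). acdh-1, of branched-chain acyl-CoA breakdown, fell by 0.53, a change that neuron centring turned to 0.19.

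Autophagy genes gave 14 rises (45.2%) and 2 falls (6.45%) among 31, beside 27.5% and 27.1% of all genes tested. The median was 0.17, and 7 rose with muscle centring. lgg-2, one of the worm homologs of LC3, rose from 30.2, 25 and 27.5 CPM to 60.8, 60.2 and 56.1 CPM (1.1), followed by epg-4 (0.96) and atg-13 (0.93). The falls, epg-2 (−0.52) and epg-3 (−0.46), turned to 0.21 and 0.26 with neuron centring, and the count of falls was 1 without water replicate 1, water replicate 3, azide replicate 1 or azide replicate 3. Proteasome subunits gave 5 falls among 33 (15.2%), below the 27.1% of all genes tested. The list median was −0.13 (0.59 with neuron and 0.12 with ribosomal centring). With upper-quartile factors 22 fell, and with neuron centring 31 rose and 0 fell. The count of 5 was 2 without water replicate 2 or azide replicate 1, and 3 without water replicate 3 or azide replicate 3.

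Cytosolic ribosomal proteins, which held 173258 ± 7194 CPM on water and 150996 ± 11169 CPM on azide, gave 14 falls and 0 rises among 80 (median −0.20). Those falls were 17.5% of the list, below the 27.1% of all genes tested. The count of falls also moved with the setting. It was 57 with upper-quartile factors, while 74 rose with neuron centring. It was 9 without water replicate 2, 5 without water replicate 3, azide replicate 1 or azide replicate 3, and 23 without azide replicate 2.

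The detoxification families held rises and falls in shares near those of all genes tested (27.5% and 27.1%). Of 60 cytochrome P450 genes 16 rose (26.7%) and 17 fell (28.3%), against 27 and 7 with neuron centring. cyp-33C8 rose (2.32), as did cyp-31A2, which helps make the lipid layer of the eggshell (2.22), and cyp-42A1 fell from 51.3, 51.6 and 46.2 CPM to 6.96, 10.9 and 9.27 CPM (−2.46). The UDP-glucuronosyltransferases gave 20 rises (32.3%) and 19 falls (30.6%) among 62, between ugt-10 (2.81) and ugt-57 (−3.71), with 11 falls without water replicate 1 and 12 without azide replicate 2. Neuron centring gave 34 rises and 4 falls for that family, and ribosomal centring 26 and 8. The glutathione S-transferases gave 13 rises (32.5%) and 10 falls (25%) among 40, with 6 falls without water replicate 1 or water replicate 3. With neuron centring 19 rose and 0 fell, and with ribosomal centring 15 rose and 4 fell. gst-19 rose from 0.456, 0.347 and 0.284 CPM to 5.01, 4.31 and 3.80 CPM.

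C-type lectins are secreted sugar-binding proteins that often mark the response to bacteria. They gave 53 rises (35.8%) and 45 falls (30.4%) among 148 tested of 243 listed, beside 27.5% and 27.1% of all genes tested. clec-169 fell 18.5-fold, from 35.8, 36.4 and 34.4 CPM to 1.89, 1.66 and 2.21 CPM (log2 fold change −4.2, SE 0.165, adjusted p = 5.05e-09, edgeR), and clec-210 fell 19.1-fold. Neither gene overlapped between treatments. clec-94 had 1, 0 and 0 counts on water and 86, 98 and 47 on azide, and the nearby clec-96 had 1, 1 and 2 against 108, 66 and 39. Lysozymes and saposin-like proteins gave 16 falls and 3 rises among 30 (median −0.57, 0.14 with neuron centring). lys-5 fell from 17.3, 13.2 and 12.9 CPM to 1.13, 1.71 and 1.46 CPM, and lys-2 (0.80) and lys-1 (0.59) rose.

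Intestinal and lysosomal proteases and lipases gave 12 falls and 3 rises among 27 (neuron centring gave 7 and 13). The aspartyl protease asp-12 fell from 80.6, 100 and 94.0 CPM to 9.67, 7.18 and 8.21 CPM (−3.45), while asp-14 rose (0.95). Antimicrobial peptides of the epidermis gave 4 rises (26.7%) and 5 falls (33.3%) among 15, also near the shares of all genes. The neighbours nlp-28 and nlp-27 rose by 3.28 and 2.14 and nlp-26 by 1.78 on the log2 scale, and nlp-28 went from 1.27, 0.992 and 2.80 CPM to 16.12, 15.2 and 18.3 CPM. The caenacin gene cnc-3 fell from 37.7, 43.4 and 33.6 CPM to 5.01, 7.79 and 8.35 CPM (−2.44), and nlp-30 fell by 1.78.

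Among the neuronal lists, falls made up 86.7% of the FLP genes tested, 57.8% of the NLP and PDF genes and 62.5% of the neuron markers, beside 27.1% of all genes. Among the neuropeptide receptor genes they made up 18.3%. flp-1, which encodes FMRFamide-like peptides of the AVK neurons, went from 16.7, 12.5 and 17 CPM to 4.76, 7.51 and 5.61 CPM (log2 fold change −1.37, SE 0.204, adjusted p = 9.82e-05, edgeR). The groups did not overlap. Of 30 FLP genes 26 fell and 0 rose (median −0.73), a count of 17 without water replicate 1, and of 45 NLP and PDF genes 26 fell and 0 rose (median −0.73), a count of 17 without azide replicate 1. flp-3 (−1.30), nlp-51 (−1.76) and nlp-52 (−2.1) were among the largest falls. With ribosomal centring 13 FLP and 12 NLP and PDF genes fell, and neuron centring left both medians within 0.01 of 0.

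The insulin-like peptides, which signal food and growth, gave 10 falls (41.7%) and 2 rises (8.33%) among 24 (median −0.72). ins-27 fell from 15.6, 14.2 and 13.0 CPM to 6.34, 4.58 and 5.34 CPM, and daf-28 fell from 6.33, 6.10 and 6.54 CPM to 2.71, 2.65 and 2.91 CPM (−1.19, adjusted p = 0.000315, edgeR). ins-35 fell by 1.56. The rises were ins-34 (2.67, under 1 CPM) and ins-31 (3.18), and 1 was called without water replicate 2, water replicate 3, azide replicate 1 or azide replicate 2. In the insulin receptor pathway 4 of 10 genes rose (40%) and 1 fell (10%), beside 27.5% and 27.1% of all genes tested. The kinase gene age-1 was among the rises (0.77). Without water replicate 3 the falls in that pathway numbered 2.

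Genes that process and release peptides gave 9 falls and 1 rise among 15 (median −0.66, 0.07 with neuron centring). The convertase egl-3 fell from 127, 109 and 114 CPM to 62.7, 56.4 and 60.1 CPM (−0.97), and the dense-core vesicle gene unc-31 by 0.87. Of 82 neuropeptide receptor genes 15 fell and 3 rose (median −0.49, 0.22 with neuron centring), and the falls numbered 6 without water replicate 1, 7 without azide replicate 1, and 9 without water replicate 3 or azide replicate 2. In TGF-beta signaling 5 of 15 genes fell (33.3%, beside 27.1% of all genes tested) and 0 rose, against 2 and 8 with neuron centring. They included daf-7 (−1.13), the ligand of sensory neurons, and sma-2 (−1.40) and lon-1 (−1.39), which act in body size.

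Among 40 neuron markers 25 fell and 2 rose (median −0.70, and 0.03 when libraries were centred on these markers). The synaptic vesicle GTPase rab-3 fell from 20.1, 12.602 and 14.1 CPM to 7.78, 6.52 and 6.23 CPM, and the cilium gene che-2 fell by 2.67. The exceptions were tbh-1 and tdc-1, enzymes that make octopamine and tyramine in a few neurons and in the somatic gonad. tbh-1 rose from 8.05, 10.7 and 6.49 CPM to 104.2, 111 and 95.3 CPM (log2 fold change 3.62, adjusted p = 0.000124, edgeR). tdc-1 rose from 35.4, 39.7 and 31.5 CPM to 95.8, 91.0 and 90.7 CPM. Glia showed 3 falls among the 5 of 8 markers that were tested, with fig-1 of the amphid sheath at 40.0, 34.2 and 32.8 against 13.5, 12.8 and 13.1 CPM.

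Markers of the other tissues gave a frame for these shifts. Body wall muscle markers had a summed CPM of 16023 ± 891 on water and 17180 ± 950 on azide (SD, n = 3). Of these 25 markers 2 fell by under 0.5 and 0 rose with TMM scaling, while 21 rose with neuron centring and 7 with ribosomal centring. The muscle myosin unc-54 had an adjusted p of 0.859 in edgeR. Without water replicate 1 the rises numbered 3, and the falls numbered 1 when any library other than water replicate 2 was left out. Pharynx markers gave 7 falls among 11 (median −1.30), among them the gland genes phat-1 (−2.67) and phat-2 (−2.50). Intestine markers gave 7 falls (41.2%) and 1 rise (5.88%) among 17, beside 27.1% and 27.5% of all genes tested. Their median was −0.15, but 0.10 with ribosomal and 0.58 with neuron centring. elt-2, the main intestinal GATA factor, fell from 38.5, 41.3 and 40.2 CPM to 27.2, 24.3 and 27.8 CPM, which neuron centring turned to 0.12. Hypodermis markers gave 9 falls among 13 (median −1.22), led by the hedgehog-related genes wrt-2 (−3.23) and grl-15 (−3.15). This list also holds the furrow collagen dpy-7, so its falls partly repeat those of the lists above. The part of tissue make-up in the other results was not tested.

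The X chromosome differed from the autosomes in the balance of calls. Of 2157 X-linked genes tested 13.6% rose and 39.5% fell, with a median of −0.37. On the 5 autosomes between 26.7% and 32.8% rose and between 22.7% and 26.7% fell. With neuron centring 39.3% of X-linked genes rose and 12.2% fell, against 56.7% and 8.25% of autosomal genes. None of the tested eggshell, oocyte, meiotic, cell cycle, spermatogenesis or major sperm protein genes lie on X. By contrast 13 of 30 FLP genes and 5 of 6 vitellogenins are X-linked. The cause of the different balance on X was not tested.

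**Figure D5:**
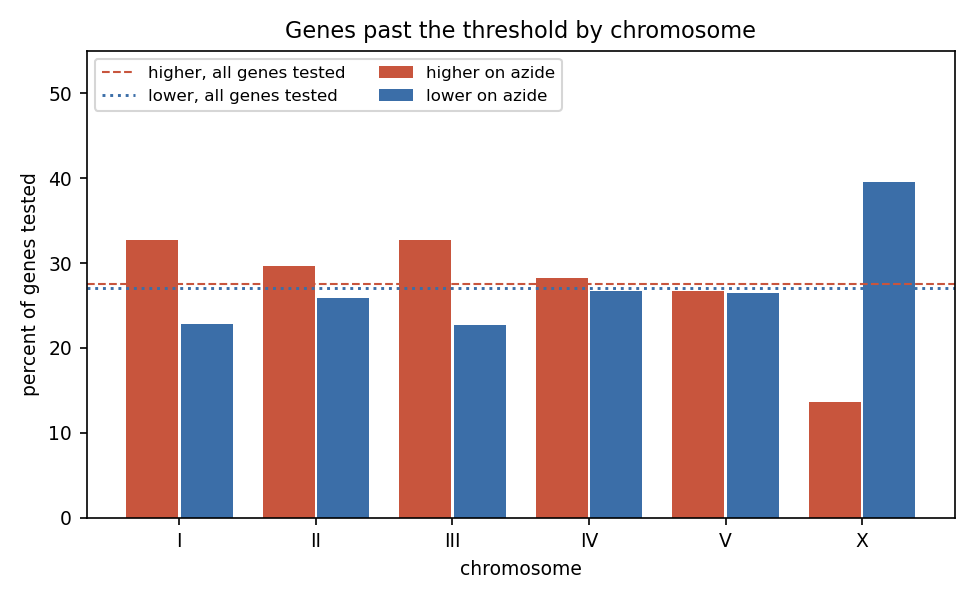
Percent of tested genes that rose and fell on azide, by chromosome, with 2157 genes on X. On the autosomes 26.7% to 32.8% rose and 22.7% to 26.7% fell, with the widest gaps in favour of rises on I and III, while on X 39.5% fell and 13.6% rose.

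The genes with the greatest changes were mostly of unassigned function. Y71G12B.18 (chromosome I, 1652916 to 1655333) fell from 52.1, 53.1 and 37.9 CPM to 0.205, 0.221 and 0.132 CPM, a log2 fold change of −7.98 (SE 0.275, adjusted p = 1.81e-09, edgeR). The neighbours D1014.6 (chromosome V, 8121241 to 8123350) and D1014.7 (8118276 to 8120351) fell together, the first from 48.3, 42.5 and 34.6 CPM to 0.409, 0 and 0.353 CPM and the second from 25.2, 24 and 19.1 CPM to 0.153, 0.110 and 0.221 CPM. All 3 genes were near 0 in every azide library and well expressed in every water library. BE0003N10.6 fell from 214, 187 and 145 CPM to 2.61, 1.44 and 3.22 CPM. Next came mltn-3, gly-1, grd-11 and 8 others with falls between −4.95 and −4.28, among them F31B9.4 and F31B9.2, adjacent genes on opposite strands of X whose reads may not be told apart.

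At the other end, Y47H9C.1 rose from 0.203, 0.0992 and 0.332 CPM to 14, 12.9 and 15.5 CPM (log2 fold change 6.01, SE 0.344, adjusted p = 6.96e-08, edgeR). nspe-6, of a nematode-specific peptide family, rose from 0.101, 0.0496 and 0.379 CPM to 11.8, 15.3 and 12.4 CPM. K07A1.6 (4.91) and cng-1 (4.54) rose from under 1 CPM to 17 to 19.5 and 11.2 to 12.9 CPM. A pair of genes was all but absent on water. F26D10.13 had 1, 0 and 0 counts there and 143, 126 and 26 on azide, and Y47D7A.11 had 1, 1 and 0 counts and then 120, 111 and 106. The 3 azide libraries were close to each other for Y47D7A.11, while azide replicate 3 was well below the others for F26D10.13. T22G5.1 (7.83, 7.01 and 2.43 CPM on azide), scl-15 (7.73, 5.14 and 2.25 CPM) and nas-17 were also lowest in that library.

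The azide effect was also set against that in the deletion strain, as a test of the difference itself. The edgeR interaction term passed the threshold for 1575 genes (10.5% of those tested), 572 with a more positive change in wild type and 1003 with a more negative one. hsp-6 (difference 0.16, adjusted p = 0.566) and cysl-2 (−0.09, adjusted p = 0.787) were not among them, nor was gsp-3 (−0.47, adjusted p = 0.359). The count of such genes was 921 without wild-type water replicate 1 and 829 without wild-type water replicate 3. It was 877, 824 and 970 without wild-type azide replicates 1, 2 and 3, and 2549 with DESeq2. No library of the deletion strain was left out.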

How the data were processed

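Poly(A) RNA of whole wild-type worms was sequenced for 3 water and 3 azide libraries. Per the labels and the methods, the authors trimmed reads with cutadapt 1.9.1, aligned them with HISAT2 2.0.1 to build WBcel235, counted reads per gene with HTSeq 0.6.1 and tested with DESeq2. The strand setting and the treatment of reads that match several genes are not stated in any source used, so close copies and antisense neighbours cannot be told apart with certainty. The deposited table holds raw counts of 20212 genes per library and FPKM values that the authors computed from the counts and a gene size. That size was a multiple of 3 for 95.4% of genes, which is the coding length. Counts were tested and FPKM served only for levels per length.

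Counts of all 12 libraries were fitted in edgeR 4.0.16 (R 4.3.3, limma 3.58.1) with TMM factors, 4 group means and 8 residual degrees of freedom. Genes passed filterByExpr at a minimum count of 10 and a total of 15, which left 15048. The wild-type azide effect and its difference from that in the deletion strain were tested by two-sided quasi-likelihood tests with Benjamini-Hochberg adjustment over all genes and a threshold of 0.05. Fold changes of means come from CPM, and log2 fold changes and SE from the fit. The fit was tested on simulated data with 200 changed genes. Library totals of 19222887 to 22831886 counts gave a median SE of 0.207 per log2 fold change. No 2 libraries agreed within sampling noise.

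Alternatives were DESeq2 1.42.0, the 6 wild-type libraries alone, 5 other scalings and no filter. Others left out each wild-type library in turn, used a replicate block or required a minimum change of 1 on the log2 scale. No library of the deletion strain was left out. Genes named are 52 chosen by role, the 15 largest rises and 15 largest falls (with no overlap and a mean of 5 CPM or more where the gene is higher) and the 3 largest changes in each direction of 57 gene lists. The genes and lists were chosen with earlier results of these data known, so they are described by counts and medians beside those of all genes. A few listed genes are counted within their lists but are not reported here by name.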

Additional observations from a re-analysis of the deposited data

Results flagged for a closer look

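The azide effect of 10 genes was compared between wild type and the deletion strain. By the edgeR interaction test the difference passed the threshold in 7 of them, beside 1575 of all 15048 genes tested (10.5%). The 10 genes were chosen with earlier results of these data known, so 7 of 10 describes these genes only. For each of the 7 the values stand as measured, with no cause tested.

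The stage genes gave the widest gaps. vit-2 rose by 3.12 on the log2 scale in wild type, while its change in the deletion strain did not pass (−0.96, adjusted p = 0.208, edgeR). There its level was 766 ± 87.4 CPM on water and 394 ± 310 CPM on azide (SD, n = 3), a wide spread among the azide libraries. The difference between the genotypes was 4.08 (adjusted p = 0.0106, edgeR). For col-19 the difference was 4.58 (adjusted p = 0.00799). Its change in the deletion strain, −1.13, did not pass either (adjusted p = 0.162), with 79.5 ± 72.3 CPM on azide (SD). dpy-7, which fell in wild type, gave 0.06 in the deletion strain, a difference of −2.96 (adjusted p = 0.00216), and noah-1 gave 0.44 and a difference of −3.07 (adjusted p = 0.000372). mlt-10 fell in both genotypes, by more in wild type (difference −1.73, adjusted p = 0.0274).

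The other 2 genes were of different kinds. hsp-16.2, which did not pass the test in wild type, fell in the deletion strain from 26.3 to 11.3 CPM (−1.22). The difference was 1.53 (adjusted p = 0.0293 by edgeR). Its wild-type means were far lower, at 0.884 CPM on water and 1.08 CPM on azide. They rest on 12 to 35 counts per library, so the wild-type side of this difference is near the floor. The neuropeptide gene flp-11 differed by −1.18 (adjusted p = 0.0135).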

How the results depend on the processing

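Both tools and all sets of libraries gave about as many rises as falls. DESeq2 called 4388 rises and 4013 falls on 12 libraries, and edgeR called 4614 and 4583 on the 6 wild-type libraries alone. Leaving out each wild-type library gave 3673 to 3948 rises and 3423 to 3751 falls. A minimum change of 1 on the log2 scale left 1640 and 2246. Scaling mattered more, with 2755 rises under muscle centring, 8160 rises and 1327 falls under neuron centring, and 2533 falls under ribosomal centring, since each choice moves all genes together. The genotype difference was called for 5366 genes under neuron centring, 959 under ribosomal centring and 2549 by DESeq2. It was called for 824 to 1191 without 1 wild-type library, and no library of the deletion strain was left out.

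Of 294 named genes tested 280 were called. Calls held without any one library for 237, under all 5 scalings for 191 and under both for 187. With neuron centring 32 named genes that passed the threshold there or with TMM changed sign, by construction because the neuron markers lie at a median of −0.70. Their log2 fold changes there were 0.21 for dve-1, 0.49 for ubl-5, 0.12 for hsp-4, 0.55 for hif-1, 0.61 for cco-1, 0.19 for acdh-1, 0.23 for ges-1, 0.082 for nhr-68, 0.13 for elt-1, 0.12 for vhl-1 and 0.24 for sod-4. They were 0.43 for gas-1, 0.40 for asg-2, 0.33 for mrps-17, 0.42 for mrpl-12, 0.47 for mrps-12, 0.26 for pyk-2, 0.36 for sucl-2, 0.40 for suca-1, 0.21 for epg-2, 0.26 for epg-3, 0.38 for rpn-12, 0.42 for pbs-5 and 0.42 for rpt-6. They were 0.16 for rpl-11.2, 0.26 for rpl-25.1, 0.32 for sgk-1, 0.27 for pat-6, 0.39 for unc-112, 0.071 for cpr-6, 0.12 for elt-2 and 0.20 for eps-8. Ribosomal centring turned mrps-12 to 0.0064. Of genes that passed in neither fit, nhr-23 (0.51), gsp-3 (0.57), spe-11 (0.25) and fat-7 (0.44) also changed sign with neuron centring. Upper-quartile factors gave −0.07 for hsp-70, −0.08 for daf-16 and −0.09 for unc-54.

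The labels do not say whether equal replicate numbers mark libraries that were handled together. Deviations of water and azide libraries of the same number correlated at 0.0219, 0.0140 and 0.0480 across genes. Between different numbers the correlations ran from −0.0539 to 0.0241. Values this small cannot settle whether the libraries were paired. With the replicate block there were 4000 rises and 3905 falls, 1225 genotype differences, and 6 named genes lost their calls.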

Other observations

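Beyond the lists, 75 genes went from under 1 CPM on water to over 5 CPM on azide, and 58 went the reverse way. T05H4.4, annotated as an NADH-cytochrome b5 reductase, rose from 0.304, 0.248 and 0.379 CPM to 8.44, 10.2 and 7.60 CPM (log2 fold change 4.79, adjusted p = 7.43e-06, edgeR). fipr-13, of a family related to fungus-induced peptides, rose by 4.25. mltn-3 fell from 8.61, 7.99 and 8.67 CPM to 0.256, 0.442 and 0.132 CPM, with every azide library far below every water library, and F49E10.2 fell by 4.39.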
